A study of Mus musculus with 12 samples.

Results

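The genes described here are 32 genes of ribosome biogenesis, the MYC transcription factor and polyamine synthesis, taken by symbol from a table of 14398 genes measured in adipocyte precursor cells of mouse fat. They comprise Myc, 29 genes of ribosomal RNA (rRNA) synthesis, rRNA modification and ribosome assembly, and the polyamine genes Srm and Odc1. All 32 were present, and all 32 passed the filter on low counts. The cells came from male C57Bl6/J mice aged 6 to 8 weeks. They were sorted as negative for CD45 and CD31, positive for CD29, CD34 and Sca1, and with or without CD24. The 4 groups were VWAT_HFD, VWAT_SD, SWAT_HFD and SWAT_SD, with 3 libraries each and 3 mice pooled into each library. VWAT is perigonadal (visceral) and SWAT inguinal (subcutaneous) white fat, HFD is a diet of 60% lard (Research Diets D12492) given for 3 days, and SD is the standard diet Harlan 2018S. The labels give SD samples as day 0, so the day of collection and the diet cannot be told apart if SD mice were taken first. By its title, the series is about oleic acid in the diet and the nuclear receptor LXR alpha in fat cell formation. No label states an aim for the genes described here.

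Ribosomes are built in the nucleolus, where RNA polymerase I transcribes the large rRNA precursor. Small nucleolar ribonucleoproteins (snoRNPs) modify that precursor, and a long series of factors cuts and folds it into the small and large subunits. MYC, which binds DNA with its partner MAX at E-boxes, is known to drive many of these genes when cells grow and divide. It is also known to drive Odc1, which encodes ornithine decarboxylase, the enzyme that makes putrescine and commits a cell to polyamine synthesis. Srm encodes spermidine synthase, which turns putrescine into spermidine. Spermidine and its product spermine bind RNA, and spermidine is used to make the hypusine residue of the translation factor eIF5A. Adipocyte precursors are fibroblast-like cells that can divide and then form fat cells, and in male mice a high-fat diet is known to make visceral precursors divide within days.

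The promoters of 26 of the 32 genes were found in the RefSeq table (build GRCm38.p6), as windows of 250 bases before a start and 50 bases after it. Wdr12 and Rrp1b had several windows, and Myc, Npm1, Fbl, Rrp12, Bop1 and Srm had no entry. A gene was counted if any of its windows held the motif. The canonical E-box CACGTG, which reads the same on both strands, was present for 5 of the 26 genes (19.2%). It was present for 8.09% of all 27025 genes in the RefSeq table and 11.5% of the 9775 tested genes found there. The 5 genes were Nop2 and Pes1 (large subunit), Utp20 and Wdr43 (small subunit) and Mybbp1a, which encodes a nucleolar MYB-binding protein. Within the 250 bases before the start, the motif was present for Nop2 alone (3.85% of the 26 genes, against 6.86% of all genes). A match describes letters in a window and no binding. The 30 bases around each motif are shown so that the flanks can be compared, with the motif in capitals. They lie at chr6:125131811-125131840 (plus strand) for Nop2, chr10:88826765-88826794 (minus strand) for Utp20, chr11:3963965-3963994 (plus strand) for Pes1, chr11:72441347-72441376 (plus strand) for Mybbp1a and chr17:71616220-71616249 (plus strand) for Wdr43.
Nop2: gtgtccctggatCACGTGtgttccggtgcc
Utp20: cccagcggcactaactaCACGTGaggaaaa
Pes1: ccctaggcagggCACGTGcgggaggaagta
Mybbp1a: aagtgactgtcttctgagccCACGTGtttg
Wdr43: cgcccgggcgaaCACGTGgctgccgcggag
With all 12 libraries and TMM scaling, none of these 5 genes passed the test in any comparison below.

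Odc1 and Nop58 did pass in at least 1, and their windows held no CACGTG. The E-boxes known for Odc1 lie in its first intron, outside this window. The 250 bases before their starts are shown in full because these are the called genes with a promoter entry. Capitals mark the GC box, searched as GGGCGG and as its reverse complement CCGCCC, which was present 4 times for Odc1 and 1 time for Nop58. That motif was in this stretch of 61.5% of the 26 genes and 35.4% of all genes. The stretches lie at chr12:17544623-17544872 for Odc1 and chr1:59684756-59685005 for Nop58, both on the plus strand of GRCm38.p6.
Odc1: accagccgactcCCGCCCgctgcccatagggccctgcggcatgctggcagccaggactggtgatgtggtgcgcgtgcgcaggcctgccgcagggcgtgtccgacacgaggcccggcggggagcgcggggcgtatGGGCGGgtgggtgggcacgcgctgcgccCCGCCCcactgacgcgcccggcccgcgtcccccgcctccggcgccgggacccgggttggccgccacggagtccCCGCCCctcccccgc
Nop58: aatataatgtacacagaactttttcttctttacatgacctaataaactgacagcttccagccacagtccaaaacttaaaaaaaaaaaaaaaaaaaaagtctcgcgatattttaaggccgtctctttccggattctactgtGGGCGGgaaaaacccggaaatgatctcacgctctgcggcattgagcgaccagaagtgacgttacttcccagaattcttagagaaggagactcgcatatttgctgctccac

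The libraries held 17.6 to 56.1 M gene counts. Values below are counts per M counts (CPM) after TMM scaling, which corrects each library for its overall composition. The 10 precursor and sort markers were all detected, with a summed level of 12926 to 17548 CPM over the 12 libraries. Summed leukocyte markers were 7.72 to 10.8 CPM in VWAT_HFD, 12.1 to 21.1 in VWAT_SD, 13.4 to 47.9 in SWAT_HFD and 12.4 to 15.3 in SWAT_SD. Among 30 genes of mitosis, all 30 rose with HFD in VWAT (median log2 change 3.07), where 15.6% of all genes were called. In SWAT 24 of 30 rose (median 2.59), where 1.11% of all genes were called. The count in SWAT was 0 without any 1 of SWAT_SD replicates 1, 2 and 3 or SWAT_HFD replicate 2. In those fits 0% of all genes were called. The mitosis count was 9 without SWAT_HFD replicate 1 or 3 (0.349% and 0.684% of all genes called) and 13 without VWAT_SD replicate 1 (0.461%). In VWAT_HFD the mean mitosis level was 3.89, 4.48 and 2.44 log2 CPM, so replicate 3 stood below the other libraries of its group.

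Per kilobase of exon, Myc was the most abundant of the 32 genes, at a mean of 137 CPM per kb over the 4 groups. Npm1, which encodes the nucleolar chaperone nucleophosmin, followed at 76.1 CPM per kb, then Odc1 at 33.8 and Srm at 30.5. Nop10, a small box H/ACA snoRNP protein, stood at 21.8 CPM per kb and Ncl, which encodes nucleolin, at 20.2. At the low end were Polr1b, the second largest subunit of RNA polymerase I, at 1.44 CPM per kb, Rrp1b at 1.25 and Wdr12 at 0.739, both of large subunit assembly. The order rests on exon lengths of GENCODE M21, which is not the annotation used for counting. Each length counts every base in any listed exon of a gene, over all its transcripts. It was 11.96 kb for Wdr12, 10.76 kb for Nop58 and 10.19 kb for Ncl, beside 2.72 kb for Myc. Genes with such long lengths may therefore stand too low in this order. Exons of other genes on the same strand, mostly of small nucleolar RNAs, overlapped at most 8% of a gene's exon length (Nop56).

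In VWAT, 3 days of HFD raised both polyamine genes, and no other gene of the 32 passed the test. Odc1 had 173, 220 and 160 CPM in VWAT_HFD, against 104, 128 and 116 CPM in VWAT_SD. All 3 HFD libraries stood above all 3 SD libraries. The change was 1.59-fold (log2 0.67, SE 0.135; adjusted p = 0.0064 by edgeR's quasi-likelihood test with Benjamini-Hochberg adjustment). Srm had 56.0, 65.9 and 54.4 CPM in VWAT_HFD, against 36.4, 35.6 and 35.2 CPM in VWAT_SD. These libraries did not overlap either, and the 3 values of VWAT_SD lay close together. The change of Srm was 1.64-fold (log2 0.72, SE 0.124; adjusted p = 0.00283). In bulk libraries of sorted cells, more cells with the transcript and more transcript per cell cannot be told apart.

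The 2 genes called of 32 stand against a background of 15.6% of all 14266 genes called by diet in VWAT, of which 8.64% were higher in HFD and 6.98% lower. Both calls held in all 20 alternative analyses, with adjusted p up to 0.0385 for Odc1 and 0.019 for Srm. Without VWAT_HFD replicate 3, the library with the lowest mitosis level of its group, 6 of the 32 genes were called, where 29.8% of all genes were in the same fit: Srm, Odc1 and Npm1 higher, and Polr1a, Polr1b and Rrp1b lower. Npm1 had 253, 235 and 169 CPM in VWAT_HFD, against 174, 168 and 176 CPM in VWAT_SD. Replicate 3 of VWAT_HFD thus lay among the SD libraries, and over all libraries the log2 change was 0.34 (adjusted p = 0.0992). Polr1b had 6.32, 6.78 and 9.55 CPM in VWAT_HFD, against 9.51, 10.2 and 9.69 CPM in VWAT_SD (log2 change -0.38; adjusted p = 0.11). Rrp1b had 6.64, 7.89 and 10.8 CPM in VWAT_HFD, against 11.2, 10.5 and 11.8 CPM in VWAT_SD (log2 change -0.41; adjusted p = 0.0961). For both genes, too, replicate 3 of VWAT_HFD lay at the SD level.

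Myc itself did not pass in VWAT. It had 304, 308 and 342 CPM in VWAT_HFD, against 407, 401 and 314 CPM in VWAT_SD, a log2 change of -0.23 (95% interval -0.50 to 0.03; adjusted p = 0.206). The groups overlapped through replicate 3 of each, and the interval holds no increase above 0.03 on the log2 scale.

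**Figure D1:**
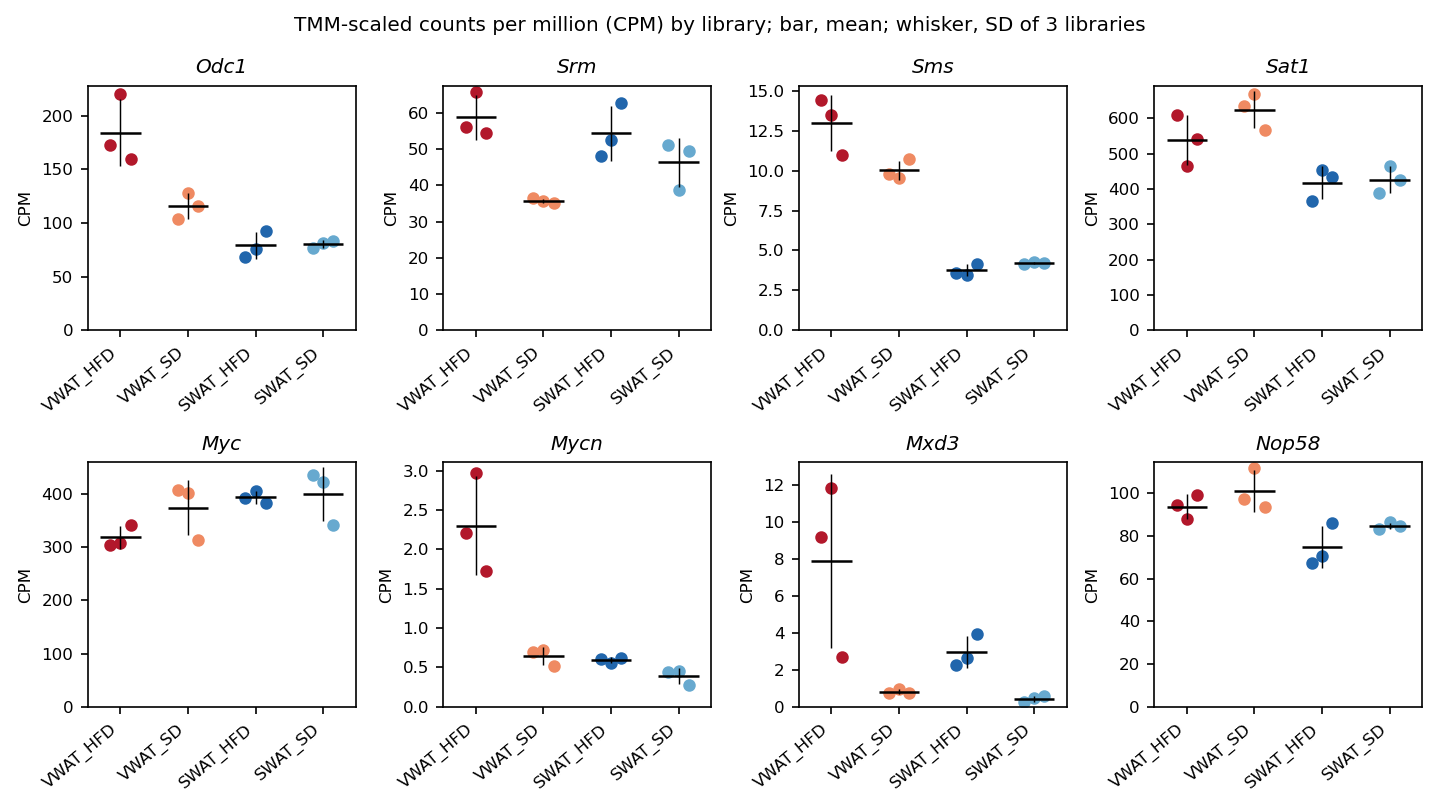
Level of each gene (CPM, vertical axis from 0) in every library by group; points are libraries, the horizontal bar is the mean and the whisker the SD of 3 libraries. Odc1 and Srm stand apart by diet in VWAT, Sms by depot on both diets, and Mycn reaches 1.72 to 2.97 CPM in VWAT_HFD while no library of another group exceeds 0.719 CPM.

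None of the 29 genes of rRNA synthesis and ribosome assembly passed the diet test in VWAT, where all 30 mitosis genes rose. Their log2 changes ran between -0.41 (Rrp1b) and 0.34 (Npm1), with a median of 0.04 beside -0.017 for all genes tested. The 95% intervals of all 29 lay within a 2-fold change in either direction, and those of 24 within 1.5-fold. The nucleolar proteins Npm1, Ncl, Nolc1, Gnl3, Ddx21 and Mybbp1a had log2 changes of -0.11 to 0.34. Gnl3, which encodes nucleostemin, had 57.7, 54.9 and 52.7 CPM in VWAT_HFD, against 46.7, 47.4 and 44.6 CPM in VWAT_SD. Its libraries did not overlap, but the log2 change of 0.25 missed the threshold (adjusted p = 0.108).

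Among the box C/D snoRNP proteins, which carry out 2'-O-methylation of rRNA, the methyltransferase gene Fbl had 17.3, 19.1 and 16.3 CPM in VWAT_HFD, against 14.1, 14.0 and 14.6 CPM in VWAT_SD. Its libraries did not overlap, and its log2 change was 0.31 (adjusted p = 0.115). Nop56 and Nop58, the paired core proteins of the same particle, had log2 changes of 0.18 and -0.11 with overlapping libraries. The box H/ACA proteins, which carry out pseudouridylation, had log2 changes of 0.11 (Gar1), 0.12 (Nop10), 0.13 (Dkc1, the pseudouridine synthase) and 0.27 (Nhp2), with adjusted p of 0.281 to 0.718. The RNA polymerase I genes Polr1a, its largest subunit, and Polr1b had log2 changes of -0.21 and -0.38.

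The 6 genes of small subunit processing (Rrp9, Wdr43, Utp20, Heatr1, Rrp12 and Nob1, the last the nuclease that trims the 3' end of 18S rRNA) had log2 changes of -0.06 to 0.06 in VWAT. The 8 genes of large subunit assembly ran between -0.41 (Rrp1b) and 0.20 (Nop16). Bop1, Pes1 and Wdr12, which form 1 complex needed for processing of the large subunit rRNA, had log2 changes of 0.14, -0.09 and 0.03. Counting genes whose libraries did not overlap, 5 of the 32 were higher in VWAT_HFD (Srm, Odc1, Gnl3, Fbl and Nop16) and 2 were lower (Nop2 and Pes1). Of all genes, 15.5% were higher and 17.5% lower by that count, 33% in all, so the 32 were not richer in such genes than the table as a whole.

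**Figure D2:**
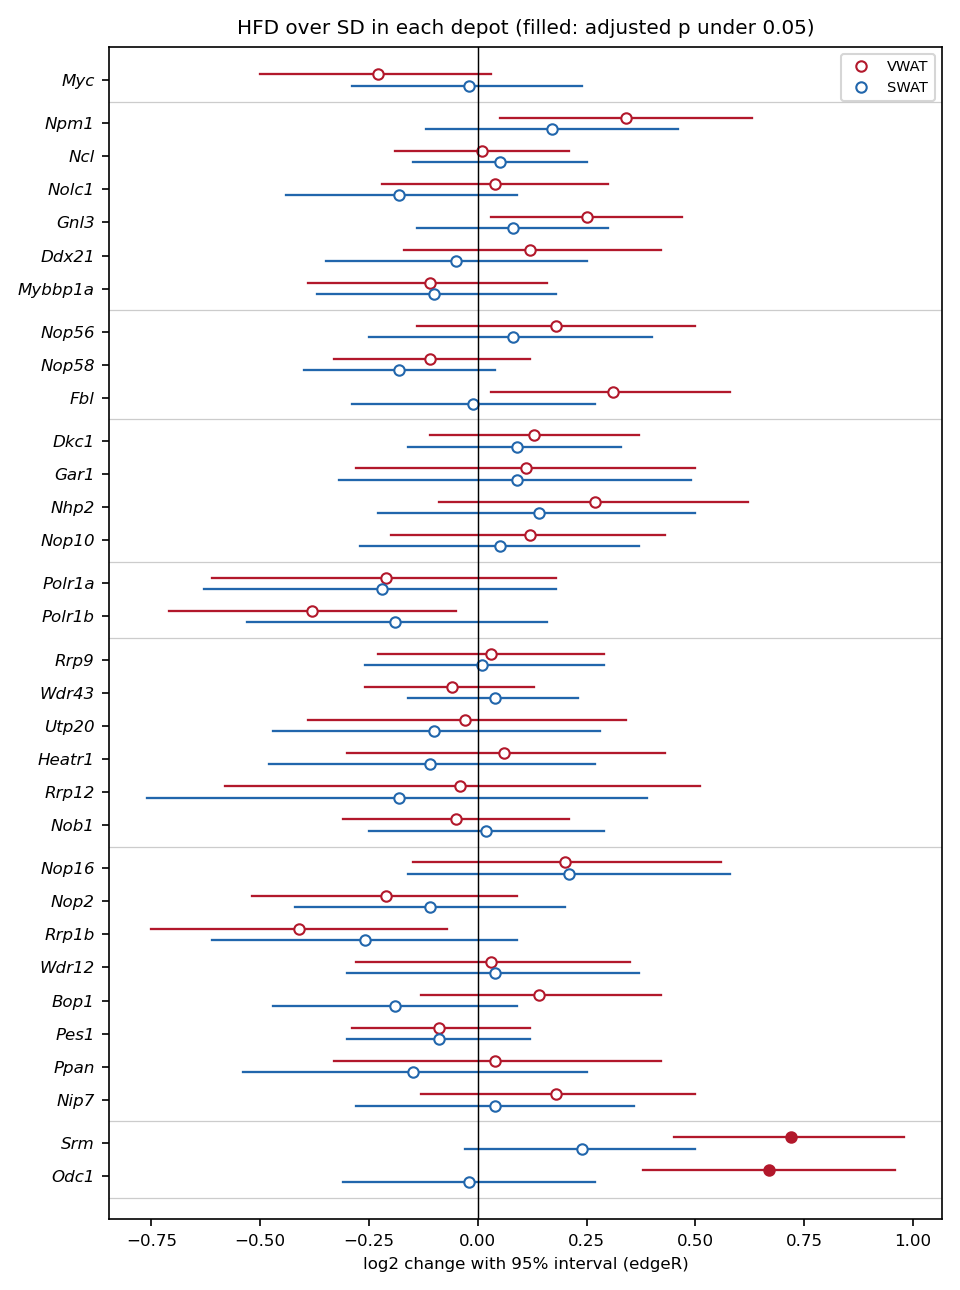
Log2 change of HFD over SD for each of the 32 genes (points) with its 95% interval (lines), VWAT in red above SWAT in blue, grouped by role with Myc at the top and the polyamine genes at the bottom. Only Srm and Odc1 in VWAT are filled (adjusted p under 0.05).

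In SWAT, none of the 32 genes passed the diet test, and none had an unadjusted p under 0.05. Of all genes, 1.11% were called there by edgeR, 0.967% higher and 0.147% lower in SWAT_HFD. DESeq2's Wald test and limma voom also called none of the 32. Odc1 had 68.6, 75.7 and 92.9 CPM in SWAT_HFD, against 76.7, 81.4 and 83.1 CPM in SWAT_SD, with fully overlapping libraries and a log2 change of -0.02 (95% interval -0.31 to 0.27; adjusted p = 0.969). Srm had 48.0, 52.5 and 62.7 CPM in SWAT_HFD, against 51.1, 38.6 and 49.4 CPM in SWAT_SD, again overlapping, with a log2 change of 0.24 (95% interval -0.03 to 0.50; adjusted p = 0.406). Myc had 392, 405 and 382 CPM in SWAT_HFD, against 436, 422 and 341 CPM in SWAT_SD. The HFD values fell inside the SD range, and the log2 change was -0.02 (adjusted p = 0.956). No gene of the 32 separated the groups without overlap, where 21.8% of all genes did.

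The 29 rRNA and assembly genes had log2 changes of -0.26 to 0.21 with HFD in SWAT, median -0.01, and the 95% intervals of 26 lay within 1.5-fold and of all 29 within 2-fold. Here 1 library set the spread. SWAT_HFD replicate 3 had the highest level of its group for 29 of the 29 genes, whereas it was the highest of its group for 39.1% of all genes. Relative to each gene's mean over the 12 libraries, the median of the 29 was 0.24 log2 units in that library and -0.23 and -0.24 in SWAT_HFD replicates 1 and 2. The 10 most abundant genes took 22.4% of its counts, beside 27.17% and 28.4% in SWAT_HFD replicates 1 and 2, its TMM factor was 0.913 beside 0.848 and 0.825, and its share of reads not aligned uniquely was 17.79% beside 15.44% and 14.98%. Mean levels of mitosis genes were 2.37, 2.80 and 2.74 log2 CPM in SWAT_HFD replicates 1, 2 and 3. Summed mural markers were 76.6 CPM in this library and 110 and 112 CPM in SWAT_HFD replicates 1 and 2, and summed endothelial markers 249 CPM beside 313 and 318 CPM. Without SWAT_HFD replicate 3 the median diet change of the 29 genes in SWAT was -0.18, and without it and VWAT_HFD replicate 3 together, a choice made after the data were seen, Nolc1 and Bop1 were called lower in SWAT_HFD, 2 of 32 where 6.39% of all genes were called. The part of these differences between libraries in the result was not tested.

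**Figure D3:**
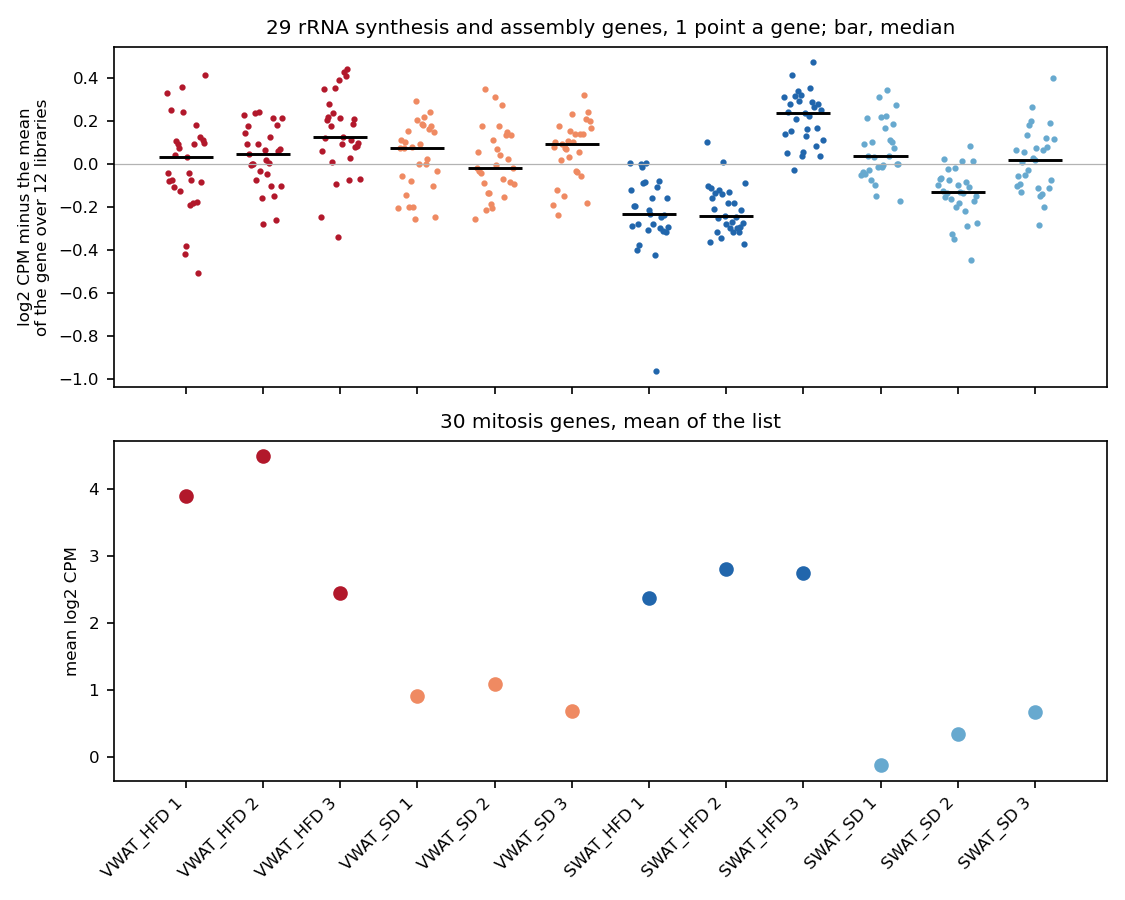
Upper panel, log2 CPM of each of the 29 rRNA synthesis and assembly genes minus its mean over 12 libraries (points, 1 a gene; bars, medians) in each library; lower panel, mean log2 CPM of 30 mitosis genes in the same libraries. SWAT_HFD replicate 3 has a median of 0.24 where the other libraries of its group have -0.23 and -0.24, and VWAT_HFD replicate 3 has the lowest mitosis mean of its group, 2.44.

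The diet changes in the depots were compared by an interaction term, the log2 change in VWAT minus that in SWAT. The 29 rRNA and assembly genes had differences of -0.20 to 0.33, median 0.07. That median was 0.25 without SWAT_HFD replicate 3, 0.13 without SWAT_SD replicate 2 and 0.00 to 0.10 with any other library left out. None of the 32 genes passed, and neither did any gene of the table (0% called by edgeR). At an unadjusted p under 0.05 edgeR gave 1026 genes, limma voom called 0 after adjustment and DESeq2 called 33, none of them among the 32. Odc1 had the lowest unadjusted p of the 32, with a difference of 0.69 (95% interval 0.28 to 1.11; unadjusted p = 0.00317, adjusted p = 0.478). For Srm the difference was 0.48 (95% interval 0.10 to 0.86; unadjusted p = 0.0167, adjusted p = 0.579). The 2 diet effects therefore passed in VWAT and not in SWAT without a difference between depots that passed. Without VWAT_HFD replicate 3 and SWAT_HFD replicate 3 together, the interaction of Odc1 was called, at 0.92 (adjusted p = 0.0257), with 2.4% of all genes.

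Odc1 was also the gene with the largest depot difference of the 32 on both diets. On HFD its 3 VWAT libraries, given above, all exceeded the 3 SWAT libraries, by 2.33-fold (log2 1.22, SE 0.137; adjusted p = 1.75e-05). This call held in all 20 alternatives, with an adjusted p of at most 0.000747. On SD the VWAT libraries again all exceeded the SWAT libraries, by 1.44-fold (log2 0.53, SE 0.136; adjusted p = 0.0108). Leaving out SWAT_SD replicate 1 (adjusted p = 0.0547) or VWAT_SD replicate 2 (0.0521) ended it on SD. In order of mean level, Odc1 stood at 185 ± 31.7 CPM in VWAT_HFD, 116 ± 11.8 in VWAT_SD, 80.4 ± 3.35 in SWAT_SD and 79.1 ± 12.5 in SWAT_HFD (SD, n = 3 each), and the SWAT groups did not differ beyond their spread.

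Srm had a different pattern across depots. On SD it was lower in VWAT than in SWAT, with the libraries given above not overlapping and a log2 change of -0.37 (SE 0.124; adjusted p = 0.0412). This call was lost in 7 of 21 alternatives, among them each analysis without SWAT_SD replicates 1 or 3 or VWAT_SD replicates 1, 2 or 3 (adjusted p 0.0867 to 0.133). With library size alone the log2 change on SD was -0.16 (adjusted p = 0.365), and Srm was then called higher in VWAT on HFD. On HFD under TMM the log2 change was 0.11 (adjusted p = 0.588) and the libraries overlapped. Mean levels were 58.8 ± 6.24 CPM in VWAT_HFD, 54.4 ± 7.54 in SWAT_HFD, 46.4 ± 6.78 in SWAT_SD and 35.8 ± 0.627 in VWAT_SD (SD, n = 3 each).

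On SD, 1 gene of the 32 was thus higher (Odc1) and 1 lower (Srm) in VWAT, where 25.7% of all genes were called. Same-numbered libraries of the SD groups deviated together over genes in a check described in the processing notes. That check does not establish that they were paired. With replicate as a block, Odc1 alone was called in the fit of 12 libraries (Srm adjusted p = 0.062). In a fit of the 6 SD libraries alone, where 47.3% of all genes were called, 11 of the 32 were: Odc1, Mybbp1a, Nop58, Wdr43, Wdr12 and Pes1 higher and Srm, Npm1, Fbl, Nop10 and Bop1 lower in VWAT. Without the block the count was 0 when SWAT_SD replicate 1 (20.4% of all genes called) or VWAT_SD replicate 2 (20.9%) was left out. It was 1 (Odc1) without SWAT_SD replicate 3 (23.7% of all genes), VWAT_SD replicate 1 (20.6%) or VWAT_SD replicate 3 (20.3%). It was 5 without SWAT_HFD replicate 3, where 26.4% of all genes were called. By overlap, 7 genes were higher in every VWAT_SD library (Odc1, Ncl, Mybbp1a, Nop58, Wdr43, Nop2 and Pes1) and 4 lower (Srm, Npm1, Fbl and Bop1). That is 11 of 32 genes, where 45.1% of all genes separated.

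On HFD, Odc1 and Nop58 were called higher in VWAT, 2 of 32 genes, where 26.8% of all genes were called. Nop58 had 94.3, 87.7 and 99.2 CPM in VWAT_HFD, against 67.5, 70.5 and 85.9 CPM in SWAT_HFD. The libraries did not overlap, though SWAT_HFD replicate 3 came close to the lowest VWAT library. The change was 1.25-fold (log2 0.33, SE 0.103; adjusted p = 0.0319), and it was lost in 5 of 20 alternatives, among them the analyses without SWAT_HFD replicates 1 (0.126) or 2 (0.118) and VWAT_HFD replicates 1 (0.0672) or 3 (0.071). On SD Nop58 had 97.4, 112 and 93.5 CPM in VWAT_SD, against 83.3, 86.3 and 84.5 CPM in SWAT_SD. These did not overlap, with a log2 change of 0.25 that missed the threshold (adjusted p = 0.0945). The number of genes called on HFD was 1 (Odc1) without SWAT_HFD replicate 1 (21.1% of all genes called), SWAT_HFD replicate 2 (19.9%) or VWAT_HFD replicate 3 (30.5%). It was 8 without SWAT_HFD replicate 3 (Odc1, Nop58, Nolc1, Gnl3, Mybbp1a, Rrp12, Wdr12 and Pes1, all higher in VWAT), where 25.6% of all genes were called, 12.4% higher.

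Myc had a log2 change between depots of -0.30 on HFD (95% interval -0.57 to -0.04; adjusted p = 0.0837) and of -0.10 on SD (95% interval -0.36 to 0.17; adjusted p = 0.628). On HFD all 3 VWAT libraries lay below all 3 SWAT libraries, and on SD they overlapped. By DESeq2 the HFD difference was called (log2 -0.31, adjusted p = 0.0431). Over all 20 alternatives the HFD difference of Myc ran from -0.38 to -0.02, with adjusted p up to 0.918. With each library left out it ran from -0.36 to -0.27. Pes1 had nearly the same log2 change on HFD (0.26, adjusted p = 0.0645) and on SD (0.26, adjusted p = 0.0662), with no overlap on either diet. By overlap on HFD, 3 genes were higher (Odc1, Nop58 and Pes1) and 1 lower (Myc) in VWAT, where 36% of all genes separated.

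The 29 rRNA and assembly genes had a median log2 depot change of 0.09 on HFD and 0.09 on SD, beside 0.017 and 0.018 for all genes tested, and ranges of -0.15 to 0.33 and -0.29 to 0.29. Of the 29, 25 were above 0 on HFD and 22 on SD. With library size alone in place of TMM, all genes shifted by a median of 0.301 on HFD and 0.236 on SD, and 29 and 27 of the 29 were above 0. Relative to all genes the median of the 29 was 0.07 under either scaling on both diets. It moved with single libraries: on HFD the median change was 0.30 without SWAT_HFD replicate 3, 0.05 without replicate 1 and 0.02 without replicate 2 of that group, and on SD it was 0.01 without SWAT_SD replicate 2 and 0.06 without VWAT_SD replicate 3. Genes listed as markers of other cells differed between depots too, and their levels do not show which cells carried them. Of 8 mesothelial markers 6 were in the table, with a summed level of 106 to 121 CPM in VWAT_HFD, 103 to 131 in VWAT_SD, 2.41 to 4.83 in SWAT_HFD and 2.75 to 4.59 in SWAT_SD. Wt1 made up most of the VWAT sums. On each diet Wt1, Msln, Upk3b and Upk1b were called higher in VWAT, the last at 0 in SWAT, and Krt19 lower (log2 -2.61 on HFD and -2.07 on SD). Of 7 Schwann cell markers 6 were in the table and summed to 10.7 to 16.2 CPM in VWAT_HFD, 11 to 14.2 in VWAT_SD, 37.4 to 42.3 in SWAT_HFD and 36.7 to 42.9 in SWAT_SD, and 4 of the 6 were called lower in VWAT on each diet. Among the 10 precursor and sort markers, 1 was called higher and 5 lower in VWAT on HFD, and 0 higher and 6 lower on SD. Of the genes of the sort gate, Cd24a was lower in VWAT on HFD (log2 -2.40) and on SD (-2.43), as were Ly6a, which encodes Sca1 (-1.15 and -1.07), and Cd34 (-0.36 and -0.36), while Itgb1, which encodes CD29, was higher on HFD (0.31). Of the 30 mitosis genes, 22 were called higher and 0 lower in VWAT on HFD (73.3%, median log2 1.14). On SD 1 was called higher and 0 lower (median 0.66). On HFD the calls of Kif20a and Kif23 were lost in 3 and 5 of 20 alternatives. The part of these marker and mitosis genes in the depot differences of Odc1, Srm and Nop58 was not tested.

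**Figure D4:**
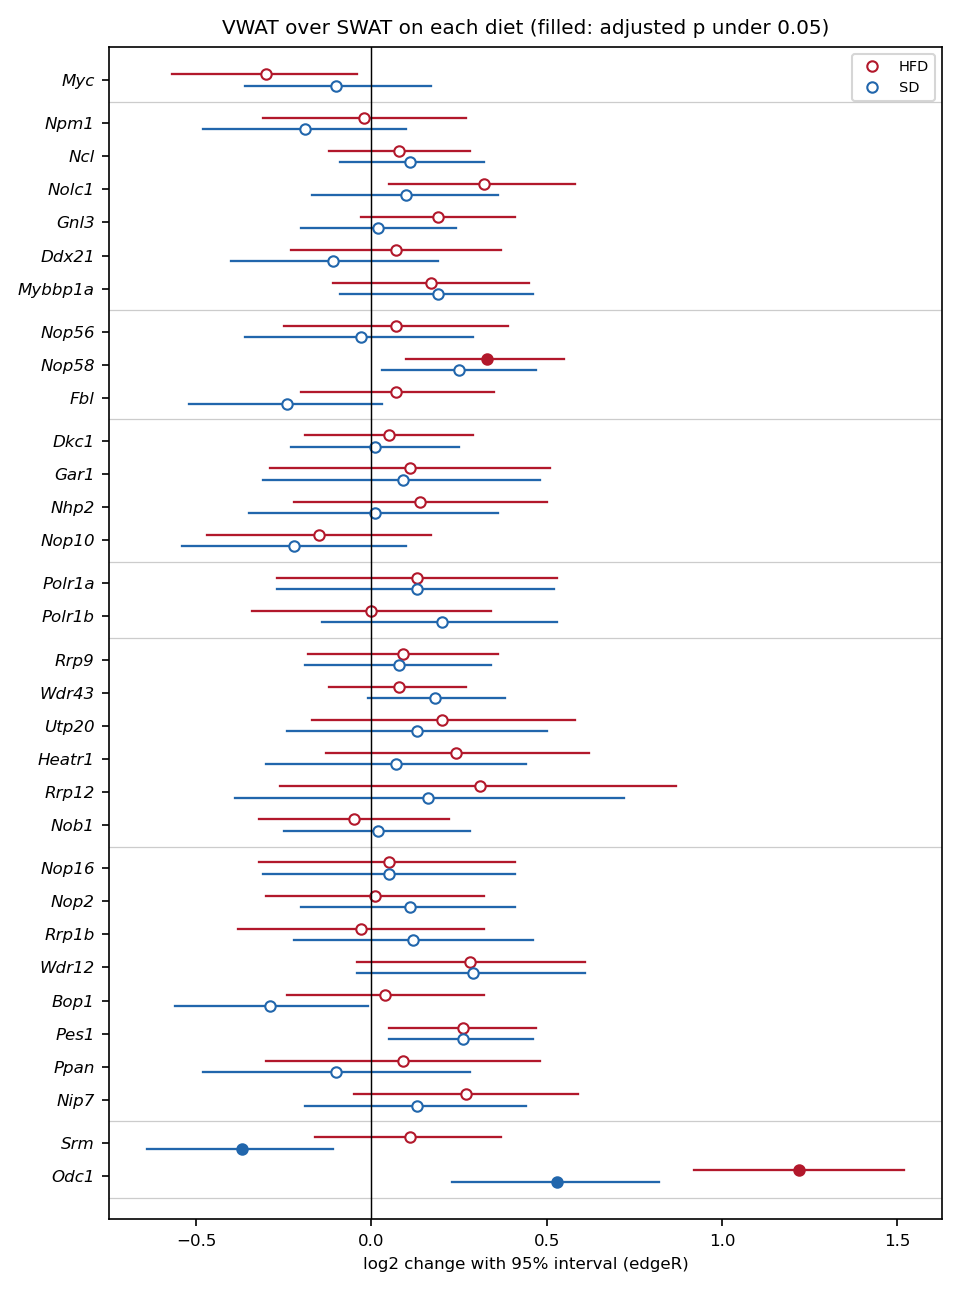
Log2 change of VWAT over SWAT for each of the 32 genes (points) with its 95% interval (lines), on HFD in red above SD in blue, grouped by role. Filled points passed (adjusted p under 0.05): Odc1 on both diets, Nop58 on HFD and Srm, below 0, on SD.

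Other genes of the polyamine pathway were set beside Srm and Odc1, with 12 of 13 listed genes tested. Sms encodes spermine synthase, the enzyme after Srm. It had 14.4, 13.5 and 11 CPM in VWAT_HFD and 9.80, 9.54 and 10.7 in VWAT_SD, against 3.61, 3.47 and 4.18 in SWAT_HFD and 4.13, 4.29 and 4.22 in SWAT_SD. Every VWAT library stood above every SWAT library, with a wide gap. The depot change was 3.43-fold on HFD (adjusted p = 3.04e-07) and 2.38-fold on SD (adjusted p = 5.15e-06), and both calls held in all alternatives. GENCODE M21 lists a processed pseudogene of Sms, so reads shared with it may be missing from its counts. With HFD in VWAT, Sms rose 1.30-fold (adjusted p = 0.046), a call lost in 13 of 20 alternatives, 10 of them with 1 library left out (adjusted p up to 0.169).

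Sat1 encodes the acetyltransferase that starts polyamine breakdown. It had 608, 466 and 540 CPM in VWAT_HFD, against 365, 453 and 435 in SWAT_HFD, and 635, 669 and 567 in VWAT_SD, against 389, 465 and 425 in SWAT_SD. VWAT libraries lay above SWAT libraries on each diet, with log2 changes of 0.36 on HFD (adjusted p = 0.0467) and 0.55 on SD (adjusted p = 0.00522). Paox, which oxidises acetylated polyamines, had log2 depot changes of 0.34 on HFD (adjusted p = 0.0299) and 0.42 on SD (adjusted p = 0.00876). Oaz2, an antizyme that targets ornithine decarboxylase for destruction, had changes of 0.26 (adjusted p = 0.0395) and 0.39 (adjusted p = 0.00382). Azin1, which opposes antizymes, was lower in VWAT on SD (log2 -0.34; adjusted p = 0.0298).

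In all, 4 of these 12 genes were higher and 0 lower in VWAT on HFD, and 4 higher and 1 lower on SD (33.3% and 41.7%, beside the 26.8% and 25.7% of all genes above). Of these calls, that of Sms held with each library left out on HFD, while the count was 1 without SWAT_HFD replicate 1 or VWAT_HFD replicate 1 and 2 without SWAT_SD replicate 1 or 2, SWAT_HFD replicate 2, VWAT_SD replicate 1 or VWAT_HFD replicate 2. On SD the count of higher genes stayed at 3 or 4 with each library left out. Amd1, which supplies the aminopropyl groups, and Eif5a passed in no comparison. Eif5a had 337, 338 and 292 CPM in VWAT_HFD, against 235, 245 and 271 CPM in VWAT_SD. These did not overlap, and the log2 change was 0.37 (adjusted p = 0.075).

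Of 13 further genes of the MYC and MAX network tested, 3 rose and 1 fell with HFD in VWAT (30.8%, beside 15.6% of all genes). Mycn, which encodes the paralogue N-MYC, had 2.21, 2.97 and 1.72 CPM in VWAT_HFD, against 0.697, 0.719 and 0.517 CPM in VWAT_SD. The libraries did not overlap and the change was 3.56-fold (adjusted p = 0.000958). On HFD its level in VWAT was 3.85-fold that in SWAT, where the libraries held 0.602, 0.557 and 0.624 CPM (adjusted p = 9.76e-05). Both calls held in all 20 alternatives, at a level that stayed under 3 CPM. In SWAT its log2 diet change was 0.55 (adjusted p = 0.436).

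Mxd3, a MAX partner that competes with MYC and is known from dividing cells, had 9.18, 11.8 and 2.67 CPM in VWAT_HFD, against 0.731, 0.973 and 0.720 CPM in VWAT_SD. In SWAT it had 2.27, 2.63 and 3.91 CPM with HFD, against 0.268, 0.455 and 0.596 CPM with SD. It rose 9.79-fold in VWAT (adjusted p = 0.000958) and 7.30-fold in SWAT (adjusted p = 0.0277). The call in SWAT was lost without any 1 of the 6 SWAT libraries. In the fits without SWAT_SD replicate 1, 2 or 3 or SWAT_HFD replicate 2, 0% of all genes were called by diet in SWAT. In VWAT_HFD replicate 3, where mitosis genes were lowest of the group, Mxd3 was lowest of the group too. Mxd1 rose in VWAT by 0.38 on the log2 scale (adjusted p = 0.0222). Max, with 54.7 to 57.8 CPM in VWAT_HFD and 56.1 to 63.3 CPM in VWAT_SD, did not pass (adjusted p = 0.379). Mlxipl, which encodes the glucose-sensing factor ChREBP, fell with HFD in both depots, by 1.46 on the log2 scale in VWAT (adjusted p = 0.0113) and by 1.52 in SWAT (adjusted p = 0.044). Its level was under 2 CPM in every library, and the calls were lost in 2 and 11 of 20 alternatives.

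Beyond the 29 genes, 134 further factors of rRNA synthesis and ribosome assembly were tested. With HFD in VWAT, 1 of the 134 rose and 6 fell (5.22%, beside 15.6% of all genes). Whether called or not, 92 of the 134 had a log2 diet change below 0 in VWAT (median -0.07) and 104 in SWAT (median -0.08). Relative to all genes these medians were -0.06 and -0.08, with TMM and with library size alone. This lean was not tested. Rrs1, of large subunit assembly, fell 1.55-fold (adjusted p = 0.00795, lost without VWAT_HFD replicate 2 at 0.0501). It had 14.6, 16.1 and 21.8 CPM in VWAT_HFD, against 26.6, 27.6 and 27.1 CPM in VWAT_SD, and the groups did not overlap. Ddx52, a helicase of the small subunit, fell 1.30-fold (adjusted p = 0.00718), and this call held in all 20 alternatives. Bysl was the gene that rose, by 0.45 on the log2 scale (adjusted p = 0.048, lost in 8 of 20 alternatives). In SWAT 0 of the 134 were called by diet with edgeR (10 at an unadjusted p under 0.05), and 0 with limma voom. DESeq2, the libraries compared alone, the replicate block and the fits without VWAT_HFD replicate 1 or 3 each called 1 lower, and library size alone 2. In these 0.112% to 1.14% of all genes were lower. Without SWAT_HFD replicate 3, 41 had an unadjusted p under 0.05 by edgeR and 0 were called. Without it and VWAT_HFD replicate 3 together 9 were called lower, where 1.89% of all genes were. The balance in VWAT moved with single libraries: 4 were higher and 19 lower without VWAT_HFD replicate 3 (29.8% of all genes). None were higher and 1 to 4 lower without VWAT_HFD replicate 1 (3) or 2 (1), VWAT_SD replicate 1 (3), 2 (4) or 3 (2), or SWAT_SD replicate 1 (4). In those fits 3.45% to 8% of all genes were higher and 1.85% to 5.28% lower. DESeq2 and limma voom gave 1 higher and 9 and 10 lower, where 8.39% and 8.59% of all genes were lower.

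Between depots, 7 of the 134 were called higher and 2 lower in VWAT on HFD (6.72%, beside 26.8% of all genes). On SD 8 were called higher and 1 lower (6.72%, beside 25.7%). Whether called or not, 104 of the 134 had log2 changes above 0 on HFD (median 0.14) and 102 on SD (median 0.11). Relative to all genes these medians were 0.12 and 0.09. Without SWAT_HFD replicate 3 the counts called on HFD were 35 higher and 2 lower, where 12.4% of all genes were higher and 13.2% lower. With any other library left out they were 1 to 6 higher and 1 to 4 lower on HFD, fewest without SWAT_HFD replicate 1 or VWAT_HFD replicate 2. In those fits 9.96% to 15.6% of all genes were higher and 9.97% to 14.9% lower. On SD, with each library left out, they were 2 to 13 higher and 0 to 2 lower. They were fewest without SWAT_SD replicate 2 or VWAT_SD replicate 1 and most without SWAT_HFD replicate 3. In the SD fits 9.47% to 15.7% of all genes were higher and 9.88% to 15.1% lower. With library size alone 86 were higher on HFD and 50 on SD, and 0 lower, where 40.9% and 30% of all genes were higher. The clearest was Rpp38, a protein of RNase MRP and RNase P, which had 3.40, 3.59 and 3.76 CPM in VWAT_HFD, against 2.41, 2.04 and 2.35 in SWAT_HFD, and 3.67, 4.72 and 4.13 in VWAT_SD, against 2.35, 2.68 and 2.57 in SWAT_SD. Its libraries did not overlap on either diet, with log2 changes of 0.67 on HFD (adjusted p = 0.00451) and 0.72 on SD (adjusted p = 0.00201), both kept in all alternatives. Of 21 RNA polymerase III genes, the subunit gene Polr3d rose with HFD in VWAT (log2 0.41; adjusted p = 0.00713, kept in all 20 alternatives). The subunit gene Polr3gl fell by 0.40 and Maf1, the repressor of that polymerase, by 0.34 on the log2 scale, each lost in 5 of 20.

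The proteins of the ribosome itself were set beside the genes that assemble it. Of 78 cytosolic ribosomal protein genes tested, 0 passed with diet in either depot, by edgeR, DESeq2 or limma voom, and 0 had an unadjusted p under 0.05 by edgeR. In VWAT 4 were called higher without VWAT_HFD replicate 3 (14.9% of all genes higher). Without VWAT_HFD replicate 1, 2 were called lower (3.59% of all genes lower). On SD, 6 were called lower in VWAT (7.69%, beside 12.5% of all genes), among them Rpl27a (log2 -0.45; adjusted p = 0.0296), Rpl8 (-0.40; 0.0315) and Rps28 (-0.39; 0.0354). All 78 log2 changes were below 0 on SD, between -0.46 and -0.13, with a median of -0.30, and the median of the 29 assembly genes was 0.09; the difference between the lists was not tested. With library size alone 66 of 78 stayed below 0 on SD and 0 were called, and relative to all genes the median was -0.32 under either scaling. The number called on SD was 0 without SWAT_SD replicate 3 or VWAT_SD replicates 1 or 2, and 1 without SWAT_SD replicate 2. It was 3 without VWAT_HFD replicate 2 or SWAT_HFD replicates 1 or 2, and 4 without SWAT_HFD replicate 3. In these fits 9.88% to 12.9% of all genes were called lower. The number was 24 without VWAT_HFD replicate 1 (13% of all genes lower) and 31 without VWAT_HFD replicate 3 (15.1%). With replicate as a block it was 3 in the fit of 12 libraries and 76 in that of the 6 SD libraries, where 23.6% of all genes were called lower. The sign of all 78 on SD stayed below 0 with each library left out.

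On HFD 76 of the 78 were below 0 (median -0.23) and 1 was called lower in VWAT, beside 13.4% of all genes. Without VWAT_HFD replicate 1, 55 were called lower, where 12.1% of all genes were. The number was 0 without VWAT_HFD replicate 2 or 3 or SWAT_HFD replicate 1, 2 or 3, where 9.97% to 14.9% of all genes were lower. With library size alone 18 were below 0, so the sign on HFD depends on the scaling. Relative to all genes the median on HFD was -0.25 under either scaling. Without VWAT_HFD replicate 3 the median under TMM was -0.06 and 57 were below 0. Without it and SWAT_HFD replicate 3 together the median was -0.00 and 40 were below 0. VWAT_HFD replicates 1, 2 and 3 had medians of 0.21, -0.18 and -0.51 log2 units over the 78 genes, relative to each gene's mean over 12 libraries. Replicate 3 of VWAT_HFD was thus low in ribosomal protein transcripts but, with a median of 0.13 over the 29 assembly genes, not in those. Many ribosomal protein genes have processed copies in the genome, and reads that match a copy equally well may be missing from these counts.

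**Figure D5:**
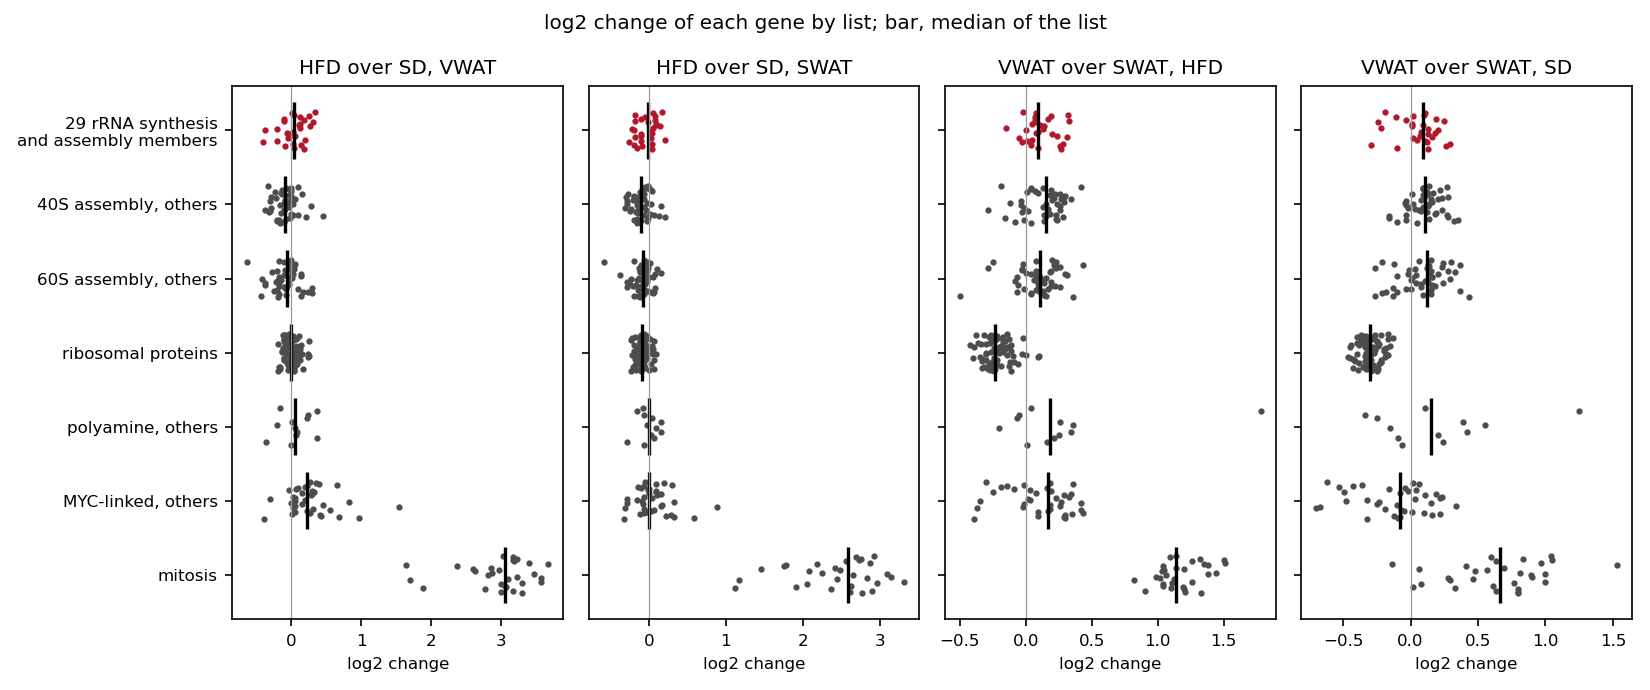
Log2 change of each gene (points) by list, with the list's median (bar), for HFD over SD in VWAT and SWAT and for VWAT over SWAT on HFD and SD. The 29 genes of rRNA synthesis and assembly (red) centre near 0 with diet, mitosis genes stand at medians of 3.07 and 2.59 with HFD, and all 78 ribosomal proteins lie below 0 in VWAT relative to SWAT on SD (66 of 78 with library size alone).

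Among 37 genes often given as MYC targets outside ribosome assembly, 9 rose and 0 fell with HFD in VWAT (24.3%, beside 8.64% of all genes higher and 6.98% lower). Bcat1, which encodes the cytosolic branched-chain aminotransferase, had 61.7, 73.3 and 36.7 CPM in VWAT_HFD, against 20.3, 20.9 and 18 CPM in VWAT_SD. It rose 2.91-fold (adjusted p = 0.000793), with replicate 3 the lowest of the HFD libraries and still above every SD library. Hk2, which encodes hexokinase 2, had 135, 155 and 131 CPM in VWAT_HFD, against 80.3, 82.3 and 52.0 CPM in VWAT_SD, and rose 1.96-fold (adjusted p = 0.00356). Both calls held in all 20 alternatives. Umps, of pyrimidine synthesis, rose 1.33-fold (adjusted p = 0.0157) and lost its call in 5 of 20.

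The other 6 that rose were Rcc1, Mthfd2, Cdk4, Nme2, Ran and Ctps, with log2 changes of 0.43 to 0.83. Leaving out VWAT_SD replicate 1, 2 or 3 gave counts of 3, 2 or 4, where 5.5%, 5.05% and 4.27% of all genes were higher. Leaving out VWAT_HFD replicate 1, 2 or 3 gave 4, 2 or 14, where 5.65%, 3.45% and 14.9% of all genes were higher. The count was 4 with library size alone (5.6% of all genes higher) and 5 with only the VWAT libraries (5.61%). In SWAT 1 of the 37 rose, Bcat1, with 55.0, 56.4 and 62.7 CPM in SWAT_HFD, against 31.6, 29.9 and 32.9 CPM in SWAT_SD (log2 0.89; adjusted p = 0.0423, lost in 12 of 20 alternatives).

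Between depots, 4 of the 37 were higher and 1 lower in VWAT on HFD, and 0 higher and 6 lower on SD (13.5% and 16.2%, beside 26.8% and 25.7% of all genes called). Cad, of pyrimidine synthesis, had 39.1, 42.0 and 37.1 CPM in VWAT_SD, against 62.1, 57.9 and 61.6 CPM in SWAT_SD, with no overlap (log2 -0.62; adjusted p = 0.000783). Fkbp4, which encodes an HSP90 co-chaperone, had 51.5, 57.8 and 54.6 CPM in VWAT_SD, against 91.3, 83.8 and 91.2 CPM in SWAT_SD (log2 -0.70; adjusted p = 0.00206). Shmt2, which encodes the mitochondrial serine hydroxymethyltransferase, was lower on SD (log2 -0.48; adjusted p = 0.00224) and on HFD (log2 -0.35; adjusted p = 0.0195). Its call was lost with library size alone on SD and in 5 of 20 alternatives on HFD, among them library size alone and the fits without SWAT_HFD replicate 1 or 3 (adjusted p up to 0.633). With library size alone 7 of the 37 were higher and 2 lower on SD (30% and 7.84% of all genes). On HFD 22 were higher and 0 lower with it (40.9% and 7.88% of all genes). The balance of calls in this list between depots thus depends on the scaling. Relative to all genes the list's median was -0.09 on SD and 0.15 on HFD under either scaling. The calls of Cad and Fkbp4 on SD held in all 21 alternatives. On HFD 0 were called without SWAT_HFD replicate 1, 1 without VWAT_HFD replicate 2 and 10 without VWAT_HFD replicate 3, and 2 to 7 with any other library left out.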

How the data were processed

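Poly(A) RNA of sorted adipocyte precursors was made into dUTP-marked libraries and read as 75 bp single ends, per the labels' protocols. Reads were aligned with TopHat and counted with HTSeq on mm9, per the submitters' processing notes; versions and the strand setting are not given in the sources used here, so overlapping and antisense genes are uncertain. The authors deposited 1 table of raw read counts per gene, with 3 further entries that name no gene (reads in no gene, in several genes or not uniquely aligned: 3.53 to 5.57%, 1.71 to 1.95% and 14.98 to 20.81% of all entries' counts), which were left out. No replicate pair held the same counts.

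The 32 genes and all lists were chosen with earlier results of these data known, and the related lists are other genes of the same pathways. Genes past filterByExpr (14266 of 14398) were tested in 1 fit of 4 groups over 12 libraries with edgeR 4.0.16 (robust quasi-likelihood F test, TMM, R 4.3.3) for 5 comparisons: HFD against SD in each depot, their difference, and VWAT against SWAT on each diet. P-values were adjusted by the Benjamini-Hochberg method across every tested gene, and "rose", "fell", "higher" or "called" without values means an adjusted p under 0.05. Intervals are 95%. CPM are TMM-scaled; log2 CPM use a prior count of 2. The spread is that between libraries, each a pool of 3 mice. Every gene of the 32 is accounted for; Myc and called genes have a value for each library, and up to 3 genes of each related list with the lowest adjusted p are named; further ones were named after their values were seen. The fits were checked on simulated data.

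The alternatives scaled by library size alone or by DESeq2's size factors, dropped the filter, used DESeq2 1.42.0 or limma voom 3.58.1, fitted the compared libraries only, blocked on the replicate number, or left out each library; 2 were added after seeing the data. Same-numbered libraries of VWAT_SD and SWAT_SD deviated together over genes (correlations 0.177, 0.178 and 0.398). Differently numbered libraries were not compared and no label states a pairing, so it is not established that these numbers pair libraries. For every other pair of groups at least 1 correlation was 0.1 or lower. Depth of 17.6 to 56.1 M gene counts limits low genes such as Mycn more than the 32. Promoter sequences are from RefSeq (GRCm38.p6) and exon lengths from GENCODE M21; no mm9 annotation was used here.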

Additional observations from a re-analysis of the deposited data

How the results depend on the processing

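The number of the 32 genes called moved by more than 1.5 times in these cases. With HFD in VWAT it was 2 (2 to 6 with each library left out) and 9 without VWAT_HFD replicate 3 and SWAT_HFD replicate 3 together (33.2% of all genes called); in SWAT it was 0 (0 to 0) and 2 without both (6.39%); for the interaction it was 0 (0 to 0) and 1 without both (2.4%). Between depots on SD it was 2 (0 to 5), 7 with library size alone (37.8% of all genes), 4 with only the libraries compared (30.1%), 1 with the replicate block (25.7%), 11 with the replicate block in the 6 SD libraries (47.3%) and 6 without both (33%). On HFD it was 2 (1 to 8), 13 with library size alone (48.7%), 1 with only the libraries compared (19.9%) and 7 without both (32.9%). The replicate block moved no other of these counts, and no label states that the replicate numbers pair libraries. The cause of these moves was not tested, apart from library size alone, which shifts all genes by a median log2 of -0.126 and -0.177 for diet in VWAT and SWAT and 0.301 and 0.236 for depot on HFD and SD. Under it 69.5% of calls by diet in VWAT were lower in HFD, against 44.7% with TMM, 61.6% against 13.2% in SWAT, 16.2% against 49.9% for depot on HFD and 20.7% against 48.8% on SD. The log2 change of Myc, which passed in neither, turned sign for diet in SWAT without SWAT_SD replicate 1 (0.04) or 2 (0.02; range -0.13 to 0.04 with each library left out), and for depot on SD without VWAT_SD replicate 3 (0.02; range -0.20 to 0.02) or with library size alone (0.12). Of 295 genes in all related lists except mitosis, 24 were called by diet in VWAT (8.14%, beside 15.6% of all genes). In SWAT 3 were called (1.02%, beside 1.11%). By depot 23 were called on HFD (7.8%, beside 26.8%) and 29 on SD (9.83%, beside 25.7%). Over all alternatives these counts ran from 6 to 70, 0 to 15, 4 to 132 and 12 to 160, in that order. The E-box count was 5 of 26, and 1 without the 50 bases after the start. In data simulated for diet in VWAT over 14229 genes, 28 of 50 genes changed 1.5-fold and 49 of 50 changed 2-fold were recovered, so small changes could be missed.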

Other observations

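Of the 10 precursor and sort markers, Thy1 (log2 1.32) and Itgb1, which encodes CD29 (0.36), rose with HFD in VWAT. Between depots, Pi16 and Dpp4, known from the early precursors of fat, were lower in VWAT on HFD (log2 -1.98 and -1.46) and on SD (-1.52 and -1.32). The part of this in the depot differences of Odc1, Srm and Sms was not tested. Of 6 mature adipocyte markers tested, 0 rose and 2 fell with HFD in VWAT, Lipe (log2 -0.83) and Pnpla2 (-0.37), which encode lipases; 15.6% of all genes were called there, and the log2 changes of the 6 ran up to 0.81 with a median of -0.16.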
